A study of Mus musculus with 8 samples.

Results

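The 10 genes described here encode the actin, troponin and tropomyosin of the striated muscle thin filament. They were taken by symbol from a table of 24516 genes, and comprised the adult cardiac forms Actc1, Tnnt2, Tnni3, Tnnc1 and Tpm1 and the fetal or skeletal forms Acta1, Tnni1, Tnnt1, Tnnt3 and Tpm2. The rule is a list of symbols, and all 10 were listed and passed the filter for testing. The study used CRISPR/Cas9 to remove a conserved enhancer of Actn2, the gene of the Z-disc protein alpha-actinin 2, in mice, and sequenced RNA of hearts at postnatal day 40. The groups were homozygotes for the enhancer deletion (HOMO, 3 hearts), heterozygotes with the deletion on a single allele (HET, 3 hearts) and wild-type mice (WT, 2 hearts). The hearts came from littermates, and the labels name no strain, founder line or sex. The design set each deletion genotype against wild type.

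In the thin filament, actin monomers polymerise into a strand, tropomyosin lies along it, and the troponin complex sits at regular intervals on the tropomyosin. Troponin C binds calcium, troponin I holds the filament in its inhibited state, and troponin T anchors the complex to tropomyosin. Rodent hearts exchange several of these proteins around and after birth: slow skeletal troponin I (Tnni1) gives way to cardiac troponin I (Tnni3), and skeletal alpha-actin (Acta1) declines relative to cardiac alpha-actin (Actc1). Acta1 is a gene that the rodent ventricle raises again under load.

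Library totals ran from 22230090 to 55902737 counts, and 15075 genes passed the filter on low counts. The enhancer's own gene was checked before the others. Actn2 had 2115, 1611 and 1791 counts per 1000000 (CPM, on library sizes scaled by the trimmed mean of M-values) in the HOMO hearts, 1693, 1546 and 1638 CPM in the HET hearts and 2187 and 2703 CPM in the WT hearts. HET Actn2 was lower than WT (log2 fold change -0.59 ± 0.16 SE, adjusted p = 0.0193, edgeR), and for HOMO the difference was -0.41 ± 0.16 with an adjusted p of 0.0771. The WT libraries differed more from each other (r = 0.952 across genes) than any pair of deletion libraries did (0.969 to 0.982), and WT heart 1 was closer to each deletion library (0.957 to 0.966) than to WT heart 2. Ventricular cardiomyocyte markers were abundant in all 8 libraries: 10 markers summed to between 75392 and 81441 CPM in HOMO, between 76279 and 79788 CPM in HET, and to 80350 and 98847 CPM in WT. Of these 10, 3 were higher and 1 lower in HOMO, and 3 were higher and 3 lower in HET. Over all genes tested, 15.3% were higher and 12.4% lower in HOMO, and 15.2% and 12.8% in HET. The higher markers were Ttn, Ryr2 and Pln in each (HOMO 0.83, 1.12 and 0.78), and Myl2 was the one lower in both.

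The adult cardiac genes were among the most abundant of the heart, Acta1 was intermediate and the other fetal and skeletal genes were scarce. By mean CPM over the 8 libraries, Tpm1 ranked 6th, Actc1 7th, Tnnt2 10th, Tnni3 14th and Tnnc1 27th among all 24516 genes. Acta1 ranked 241st, while Tpm2 (5993rd), Tnnt1 (7618th), Tnnt3 (12996th) and Tnni1 (13444th) were far lower. Per kilobase of transcript, the level order over the 8 libraries was Tnni3, Actc1, Tnnt2, Tpm1 and Tnnc1, then Acta1, and then Tnnt1, Tpm2, Tnnt3 and Tnni1, with 8-library means between 6261 CPM per kb for Tnni3 and 0.664 CPM per kb for Tnni1. Neighbours in the upper part of that order could not be separated by their spread: in HOMO hearts Tnni3 had 5269 ± 286 and Tnnt2 5203 ± 485 CPM per kb, and in WT hearts Tnni3 had 8936 ± 3227 and Actc1 5700 ± 2150 CPM per kb. The 10 genes together took 3.08%, 3.03% and 3.11% of all counts in the HOMO libraries, 3.06%, 3.03% and 2.80% in the HET libraries, and 4.07% and 3.67% in the WT libraries. Each of the 6 deletion hearts was below both WT hearts in that share.

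**Figure D1:**
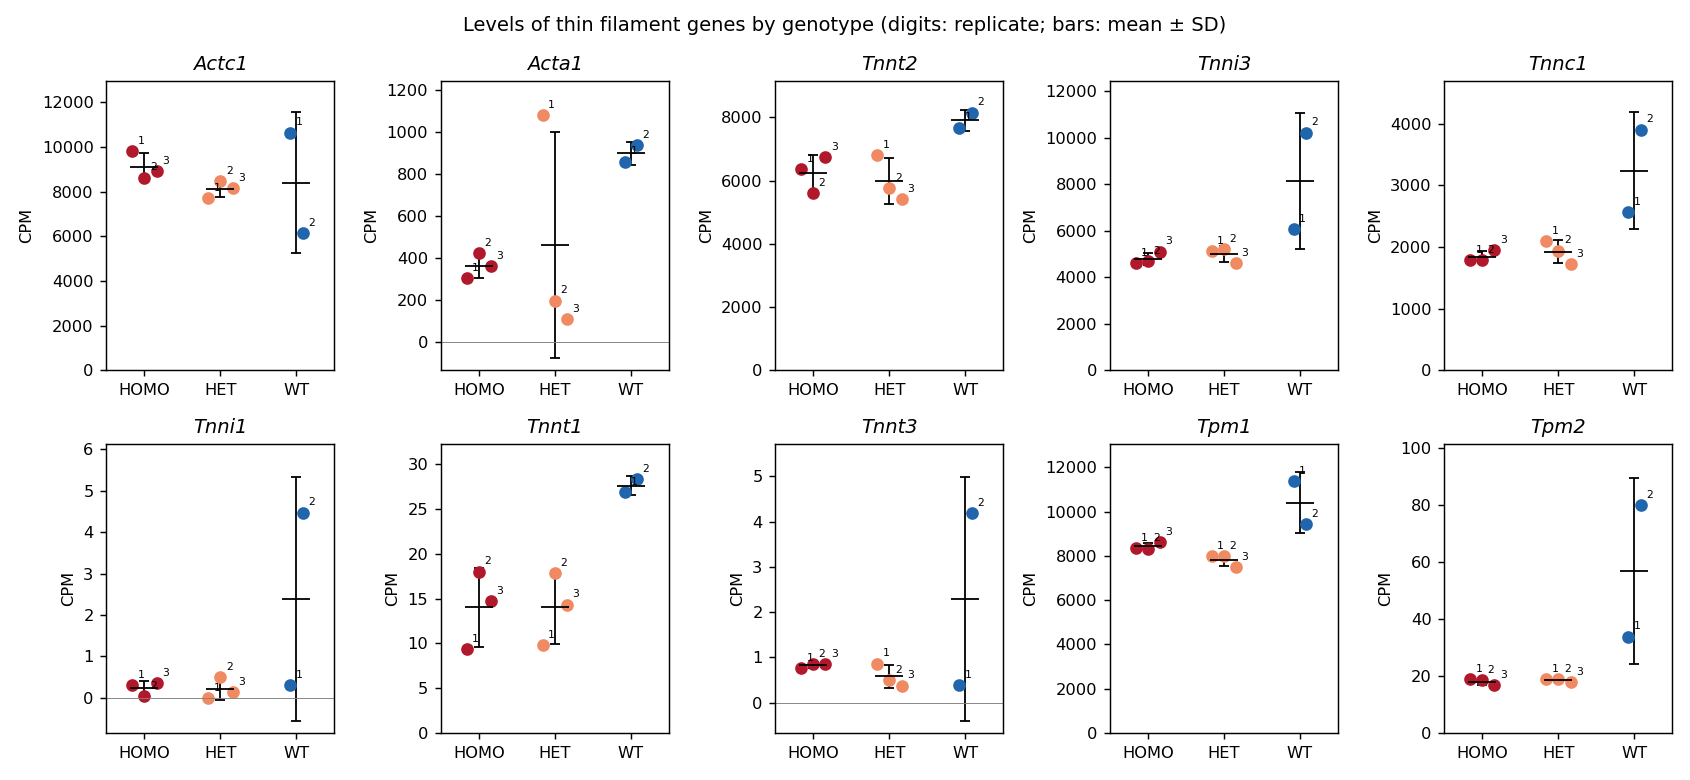
CPM of each of the 10 thin filament genes (vertical axes, linear, a separate scale for each gene) in HOMO, HET and WT hearts, with the replicate number beside each point and the mean ± SD as bars. The 6 deletion hearts lay together for Tnni3, Tnnc1, Tpm1 and Tpm2, whereas the WT hearts were far apart for Actc1, Tnni3, Tnni1, Tnnt3 and Tpm2, and HET heart 1 stood apart from the other HET hearts for Acta1.

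The actins. Actc1, the cardiac alpha-actin gene, and Acta1, the skeletal alpha-actin gene, encode closely related proteins, and their first 120 coding bases, from the start codon, are shown because reads must tell the 2 genes apart for the counts to mean anything. Capitals mark the 19 positions at which they differ, in GENCODE vM21 transcripts.
Acta1: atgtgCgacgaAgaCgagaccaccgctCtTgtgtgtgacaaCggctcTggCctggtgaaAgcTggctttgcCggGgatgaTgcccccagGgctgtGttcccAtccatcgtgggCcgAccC
Actc1: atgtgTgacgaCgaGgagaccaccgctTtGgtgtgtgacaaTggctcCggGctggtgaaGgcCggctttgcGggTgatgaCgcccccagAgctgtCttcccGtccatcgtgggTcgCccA
The coding sequences were 86.3% identical over 1131 bases, but the longest run that the transcripts shared was 29 bases, and no window of 50 bases occurred in both. The genes lie apart in the mouse genome (GRCm38), Actc1 at chr2:114047282-114053548 and Acta1 at chr8:123891769-123894751, both on the minus strand.

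Actc1 stood at 9798, 8629 and 8918 CPM in HOMO hearts, 7716, 8461 and 8169 CPM in HET hearts, and 10636 and 6156 CPM in WT hearts. All 6 deletion hearts therefore fell between WT heart 2, the lowest of the 8, and WT heart 1, the highest. The fitted difference was 0.12 ± 0.21 on the log2 scale for HOMO against WT (adjusted p = 0.706) and -0.05 ± 0.20 for HET against WT (adjusted p = 0.881). The WT library left in decided the direction: without WT heart 1, Actc1 was higher in HOMO (0.57, adjusted p = 0.0103) and in HET (0.40, adjusted p = 0.0488), and without WT heart 2 the values were -0.19 (adjusted p = 0.427) and -0.36 (adjusted p = 0.110).

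Acta1 had 306, 423 and 363 CPM in HOMO hearts, 1083, 198 and 109 CPM in HET hearts and 860 and 938 CPM in WT hearts. The 3 HOMO hearts were all below both WT hearts, and so were HET hearts 2 and 3, while HET heart 1 was above both. The fitted differences, -1.30 ± 0.90 for HOMO (adjusted p = 0.337) and -0.96 ± 0.90 for HET (adjusted p = 0.481), did not pass the threshold in a fit that estimates the spread over all 3 genotypes. Acta1 varied 9.92-fold over the 8 hearts. Without HET heart 1, Acta1 passed in both genotypes, at -1.28 in HOMO (adjusted p = 0.00548) and at -2.52 in HET (adjusted p = 0.000812). With only HOMO and WT hearts in the edgeR fit it passed as well, at -1.29 ± 0.17 (adjusted p = 0.00471). With only HET and WT hearts it did not, at -0.96 ± 1.03 (adjusted p = 0.562).

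HET heart 1 stood apart in 2 other thin filament genes, named here after their values were seen. Xirp2, an actin-binding repeat protein of the intercalated disc, had 1052, 1007 and 1118 CPM in HOMO, 2647, 989 and 936 CPM in HET and 511 and 523 CPM in WT. Neb, the nebulin gene, had 7.79, 10.6 and 10.2 CPM in HOMO, 25.0, 11.6 and 13.5 CPM in HET and 7.44 and 5.96 CPM in WT. In each of the 3 genes HET heart 1 was the highest of the 8.

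The 250 bases before the start of Acta1 (RefSeq, GRCm38.p6, chr8:123894776-123895025, minus strand) and 238 of the 250 bases before that of Actc1 (chr2:114052888-114053125, minus strand, ending where an annotated first exon begins) are shown because each holds a CArG box, the element bound by serum response factor, here in capitals.
Acta1: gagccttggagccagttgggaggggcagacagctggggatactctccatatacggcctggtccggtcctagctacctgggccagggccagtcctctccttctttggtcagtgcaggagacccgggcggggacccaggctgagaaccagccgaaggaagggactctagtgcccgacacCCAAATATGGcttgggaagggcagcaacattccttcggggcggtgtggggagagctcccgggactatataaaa
Actc1: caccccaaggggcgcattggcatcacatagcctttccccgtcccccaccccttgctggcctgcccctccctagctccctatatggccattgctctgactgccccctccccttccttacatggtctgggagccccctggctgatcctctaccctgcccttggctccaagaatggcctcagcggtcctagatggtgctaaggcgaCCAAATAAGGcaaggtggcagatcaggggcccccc
The box began 73 bases before the annotated start in Acta1 and 47 bases before it in Actc1. The Actc1 start is that of the RefSeq entry. Its window lies within the GENCODE span of Actc1 given above (chr2:114047282-114053548), which begins farther upstream. Of the 9 thin filament genes with an entry in the promoter table, these 2 held the box in the 250 bases before a start, as did 482 of 32851 promoters (1.47%), reading both strands. The MCAT element, CATTCC on either strand, bound by TEAD factors, was present in the same window of Acta1, Tnnt2, Tnnc1 and Tpm1 and in 12.6% of all promoters. Annotated exons of the same gene reached into the windows of Tnni3, Tpm1, Tpm2, Tnnt1 and Actc1. They also reached into both windows of Tnni1 and into the window of start site 2 of Tnnt2. All windows were still read in full, so a motif present or absent in these may not describe upstream sequence. The box of Actc1 lay within the 238 bases shown, outside the exon. The levels of the 2 actin genes did not follow each other across the 8 libraries (r = -0.20 on log2 CPM).

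As a share of the 2 sarcomeric actins together, Acta1 made up 3.03%, 4.68% and 3.91% of the counts in HOMO hearts, 12.3%, 2.29% and 1.32% in HET hearts, and 7.48% and 13.2% in WT hearts. The HOMO and WT shares did not overlap (3.87% ± 0.82 against 10.4% ± 4.1, SD, n = 3 and 2). An exact two-sided permutation test gave p = 0.2, the smallest that 3 against 2 hearts allow. HET averaged 5.30% ± 6.08 and overlapped WT (exact permutation p = 0.4).

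The troponins of the adult heart. Tnni3, Tnnc1 and Tnnt2 encode the cardiac inhibitory, calcium-binding and tropomyosin-binding subunits. Tnni3 and Tnnc1 were lower in both deletion genotypes, and moved together so closely that the ratio of the 2 was nearly the same in all 8 hearts. Tnnt2 was below both WT hearts in every deletion heart by a smaller margin, which did not pass the threshold.

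Tnni3 (chr7:4518305-4524229) stood at 4607, 4709 and 5101 CPM in HOMO, 5138, 5227 and 4602 CPM in HET and 6069 and 10231 CPM in WT. The 6 deletion hearts lay within a narrow band below WT heart 1, and WT heart 2 was 1.69 times WT heart 1. The log2 fold change was -0.76 ± 0.20 in HOMO (adjusted p = 0.0171) and -0.71 ± 0.20 in HET (adjusted p = 0.0230). Without WT heart 2 it was -0.30 (adjusted p = 0.188) and -0.25 (adjusted p = 0.273), which no longer passed.

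Tnnc1 (chr14:31208312-31211729) had 1785, 1787 and 1948 CPM in HOMO, 2101, 1940 and 1725 CPM in HET and 2571 and 3906 CPM in WT. Again the deletion hearts did not reach either WT heart. The log2 fold change was -0.82 ± 0.18 in HOMO (adjusted p = 0.00830) and -0.75 ± 0.18 in HET (adjusted p = 0.0115), and without WT heart 2 it was -0.45 (adjusted p = 0.0670) and -0.39 (adjusted p = 0.102). Per kilobase, Tnnc1 was 0.490, 0.480 and 0.483 of Tnni3 in HOMO, 0.517, 0.469 and 0.474 in HET and 0.536 and 0.483 in WT. The level of the calcium-binding subunit kept a near-constant ratio to that of the inhibitory subunit, while the highest heart exceeded the lowest 2.22-fold for Tnni3 and 2.26-fold for Tnnc1.

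Tnnt2 (chr1:135836354-135852260) had 6375, 5608 and 6748 CPM in HOMO, 6819, 5774 and 5416 CPM in HET and 7680 and 8152 CPM in WT. It differed from its partners in that the WT hearts were close to each other, WT heart 2 being 1.06 times WT heart 1. The log2 fold change was -0.34 ± 0.15 in HOMO (adjusted p = 0.119) and -0.40 ± 0.15 in HET (adjusted p = 0.0739). Per kilobase, Tnni3 was 0.951, 1.10 and 0.995 of Tnnt2 in HOMO, 0.992, 1.19 and 1.12 in HET and 1.04 and 1.65 in WT, so WT heart 2 had the highest ratio of Tnni3 to Tnnt2.

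The fetal and skeletal troponins. Tnni1, Tnnt1 and Tnnt3 encode slow skeletal troponin I, slow skeletal troponin T and fast skeletal troponin T. Tnnt1 was lower in both deletion genotypes, at about 0.51 times the WT level. In 7 of the 8 hearts Tnni1 was near the limit of detection (0 to 16 counts) and Tnnt3 was low (10 to 49 counts). The exception was WT heart 2 in each case.

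Tnnt1 had 9.31, 18.02 and 14.7 CPM in HOMO, 9.80, 17.9 and 14.3 CPM in HET and 26.9 and 28.3 CPM in WT. The deletion hearts varied among themselves but none reached either WT heart, and the WT hearts lay close together. The log2 fold change was -0.97 ± 0.28 in HOMO (adjusted p = 0.0286) and -0.98 ± 0.29 in HET (adjusted p = 0.0286). With a single WT heart left the size stayed between -0.90 and -1.01 in both comparisons, and the adjusted p lay between 0.0704 and 0.168. Tnnt1 (chr7:4504570-4516382) lies 1922 bases from Tnni3 on the same strand, and Tnni1 (chr1:135779434-135810989) lies 25364 bases from Tnnt2. The r of log2 CPM over the 8 libraries was 0.70 for Tnnt1 and Tnni3 and 0.56 for Tnni1 and Tnnt2.

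Tnni1 had 10, 2 and 12 counts in HOMO, 0, 16 and 4 counts in HET and 8 and 129 counts in WT. These are 0.305, 0.0349 and 0.354 CPM in HOMO and 0.501 and 0.137 CPM in HET hearts 2 and 3, against 0.308 and 4.47 CPM in WT. The count of 0 in HET heart 1 allows a level of up to 0.136 CPM (3 counts, counting error only). WT heart 1 was thus at the level of the deletion hearts, and the fitted differences (-3.42 ± 1.28 in HOMO, adjusted p = 0.0724, and -3.40 ± 1.29 in HET, adjusted p = 0.0755) rested on WT heart 2. Without WT heart 2 they were -0.43 in each genotype (adjusted p = 0.898 in HOMO and 0.890 in HET). Tnni1 passed without WT heart 1, at -4.32 in HOMO (adjusted p = 0.0154) and -4.28 in HET (adjusted p = 0.0170). The DESeq2 test called it with all libraries in, at an adjusted p of 0.0246 in HOMO and 0.0234 in HET.

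Tnnt3 had 0.763, 0.854 and 0.856 CPM in HOMO, 0.862, 0.501 and 0.376 CPM in HET and 0.386 and 4.19 CPM in WT. WT heart 2 was 10.9 times WT heart 1, which was below all 3 HOMO hearts. The fitted differences were -1.47 ± 0.77 in HOMO (adjusted p = 0.179) and -1.997 ± 0.791 in HET (adjusted p = 0.0836), and without WT heart 2 their signs turned, to 1.12 and 0.60 (adjusted p = 0.434 and 0.695). Without WT heart 1 they passed, at -2.33 in HOMO (adjusted p = 0.00565) and -2.86 in HET (adjusted p = 0.00196).

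The coding sequences of slow skeletal and cardiac troponin I differ more than those of the 2 actins, and are shown because the small Tnni1 counts stand beside very large Tnni3 counts. The longest stretch that aligned without a gap is shown in part, with the 46 of 120 positions that differ in capitals, coding bases 3 to 122 of Tnni1 and 99 to 218 of Tnni3.
Tnni1: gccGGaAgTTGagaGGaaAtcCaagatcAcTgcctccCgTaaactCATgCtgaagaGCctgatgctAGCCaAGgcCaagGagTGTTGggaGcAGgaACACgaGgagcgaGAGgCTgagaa
Tnni3: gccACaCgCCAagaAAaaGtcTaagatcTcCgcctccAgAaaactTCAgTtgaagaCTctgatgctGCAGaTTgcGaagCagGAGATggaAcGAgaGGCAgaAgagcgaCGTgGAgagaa
Their transcripts shared no run longer than 21 bases. No window of 50 bases was shared between any of the 10 transcripts. Of the annotated genes, only Dnaaf3 shared exon bases with any of the 10, 86 of the 2063 exon bases of Tnni3, on the same strand.

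Tnni1 made up 0.00663%, 0.000740% and 0.00694% of the troponin I counts in HOMO, 0%, 0.00958% and 0.00297% in HET and 0.00508% and 0.0437% in WT. WT heart 2 was the highest, and its 95% Wilson interval was 0.0368% to 0.0519%. Tnnt1 and Tnnt3 together made up 0.158%, 0.335% and 0.230% of the troponin T counts in HOMO, 0.156%, 0.317% and 0.271% in HET and 0.354% and 0.398% in WT. Both deletion genotypes lay below WT in the skeletal troponin T share, and each comparison gave exact permutation p = 0.2, the smallest possible. The margin was small: the 95% Wilson interval of WT heart 1 was 0.329% to 0.381%. Those of HOMO heart 2 (0.316% to 0.356%) and HET heart 2 (0.293% to 0.344%) overlapped it.

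The tropomyosins. Tpm1 encodes alpha-tropomyosin, the main form of the rodent ventricle, and Tpm2 beta-tropomyosin, a form of fetal heart, slow skeletal muscle and smooth muscle. Tpm2 was called in both genotypes with any single library left out: it stood at about 0.32 times the WT level in HOMO and 0.33 times in HET, with the 6 deletion hearts close together. Tpm1 was below both WT hearts in every deletion heart, by a smaller margin.

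Tpm2 (chr4:43514711-43523765) had 18.8, 18.4 and 16.9 CPM in HOMO, 18.9, 18.9 and 17.8 CPM in HET and 33.9 and 80.0 CPM in WT. The deletion hearts lay between 16.9 and 18.9 CPM, and the lower WT heart was well above all of them. The log2 fold change was -1.66 ± 0.28 in HOMO (adjusted p = 0.00280) and -1.62 ± 0.28 in HET (adjusted p = 0.00291). Its size depended on WT heart 2, at 2.36 times WT heart 1, but its call did not: without WT heart 2 it was -0.88 in HOMO (adjusted p = 0.00406) and -0.84 in HET (adjusted p = 0.00494), and without WT heart 1 it was -2.14 and -2.10.

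Tpm1 (chr9:67022590-67049406) had 8343, 8327 and 8617 CPM in HOMO, 7989, 7983 and 7493 CPM in HET and 11373 and 9421 CPM in WT. In contrast to Tnni3, Tnnc1 and Tpm2, WT heart 1 was the higher of the WT hearts. The log2 fold change was -0.41 ± 0.14 in HET (adjusted p = 0.0470), just past the threshold, and -0.30 ± 0.14 in HOMO (adjusted p = 0.126). The HET call was lost in 17 of 22 alternative fits, total-count scaling among them.

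Tpm2 made up 0.225%, 0.221% and 0.195% of the counts of the 2 tropomyosins in HOMO, 0.236%, 0.236% and 0.236% in HET and 0.297% and 0.842% in WT. Both deletion genotypes lay below both WT hearts, and the HOMO mean of 0.214% ± 0.016 differed from the HET mean by -0.0227 percentage points. No comparison of the 4 isoform shares can pass the threshold at this number of hearts: exact permutation p was 0.2 for each deletion genotype against WT and 0.1 for HOMO against HET in the Tpm2 share, the smallest values the design allows.

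**Figure D2:**
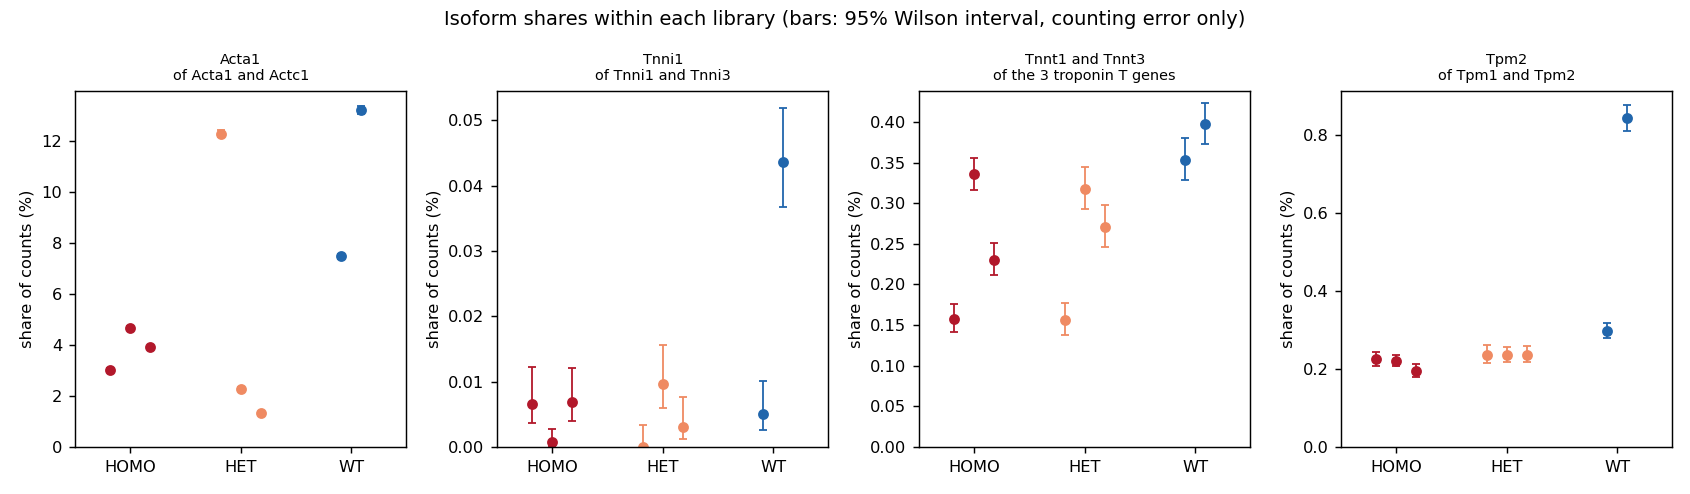
Share of counts within each library (percent, linear axes from 0) for Acta1 among the 2 sarcomeric actins, Tnni1 among the 2 troponin I genes, Tnnt1 and Tnnt3 among the 3 troponin T genes, and Tpm2 among the 2 tropomyosins, in HOMO, HET and WT hearts. Points are hearts with 95% Wilson intervals. The Tpm2 share lay at 0.195% to 0.236% in the 6 deletion hearts and at 0.297% and 0.842% in the WT hearts, and HET heart 1 reached 12.3% for Acta1.

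Counted over the 10 genes, 4 were lower in HOMO than in WT (Tnni3, Tnnc1, Tnnt1 and Tpm2) and none was higher. Over all 15075 genes tested, 12.4% were called lower, 15.3% higher and 27.7% in either direction. In HET, 5 were lower (the same 4 and Tpm1) and none was higher, where 12.8% of all genes were called lower, 15.2% higher and 28.0% in either direction. All 3 HOMO hearts were below both WT hearts in 7 of the 10 genes, against 27.2% of all genes, and above both in none, against 27.6%. All 3 HET hearts were below both in 6 of the 10, against 25.6%, and above both in none, against 25.7%. The median log2 fold change of the 10 genes was -0.90 in HOMO and -0.85 in HET, beside -0.03 over all genes in each comparison. These comparisons share the same WT hearts.

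Of the called genes, Tpm2 passed in both genotypes with any single library left out, and the others did not. In HOMO, the Tnni3 call was lost without HOMO heart 1 (-0.73, adjusted p = 0.0612) or HOMO heart 2 (-0.75, adjusted p = 0.0535), besides WT heart 2. In HET it was lost without any HET heart (-0.65 to -0.74, adjusted p from 0.0520 to 0.0835). The Tnnc1 call in HET was lost without HET heart 3 (-0.68, adjusted p = 0.0508). The Tnnt1 call was lost without HOMO heart 1 (-0.75, adjusted p = 0.0729) or HOMO heart 3 (-1.01, adjusted p = 0.0714) in HOMO, and without HET heart 1 (-0.75, adjusted p = 0.0766) or HET heart 3 (-0.99, adjusted p = 0.0717) in HET, as well as without either WT heart.

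Transcript length differed between the thin filament genes and most tested genes. The transcripts used here ran from 721 bases for Tnnc1 and 912 for Tnni3 to 2098 for Tpm2, where the median tested gene had 2951. A trend over GC content and the lengths of transcript and 3′ UTR was fitted across all genes in each library. It gave for a gene with the properties of Tnnc1 a HOMO-minus-WT difference of -0.59 on the log2 scale, for Tnni3 -0.56, for Tnnt1 -0.52, for Tpm2 -0.28 and for Tpm1 -0.17. In WT hearts 1 and 2 the trend was uneven for Tnnc1 (0.20 and 0.67) and Tnni3 (0.24 and 0.59), and even for Tpm2 (0.21 and 0.23). For these genes it was above 0 in both WT hearts and below 0 in every deletion heart, so trend and genotype cannot be told apart. With that trend taken out and all libraries in, Tpm2 was the only gene of the 10 that passed, at -1.37 ± 0.27 in HOMO (adjusted p = 0.0120) and -1.31 ± 0.27 in HET (adjusted p = 0.0151). Tnni3 was then at -0.16 ± 0.15 (adjusted p = 0.493), Tnnc1 at -0.19 ± 0.12 (adjusted p = 0.333) and Tnnt1 at -0.46 ± 0.30 (adjusted p = 0.338) in HOMO. HET gave -0.12, -0.15 and -0.47 for the same 3 genes, and Tpm1 in HET was at -0.24 ± 0.12 (adjusted p = 0.232). Tnnt2, below WT as deposited, was then at 0.18 in HOMO and 0.10 in HET. Without WT heart 2 as well, Tpm2 stood at -0.62 in HOMO (adjusted p = 0.0384) and at -0.57 in HET (adjusted p = 0.0553). Without WT heart 1 instead, Actc1 was called higher, at 1.0015 in HOMO (adjusted p = 0.00143) and 0.81 in HET (adjusted p = 0.00465).

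**Figure D3:**
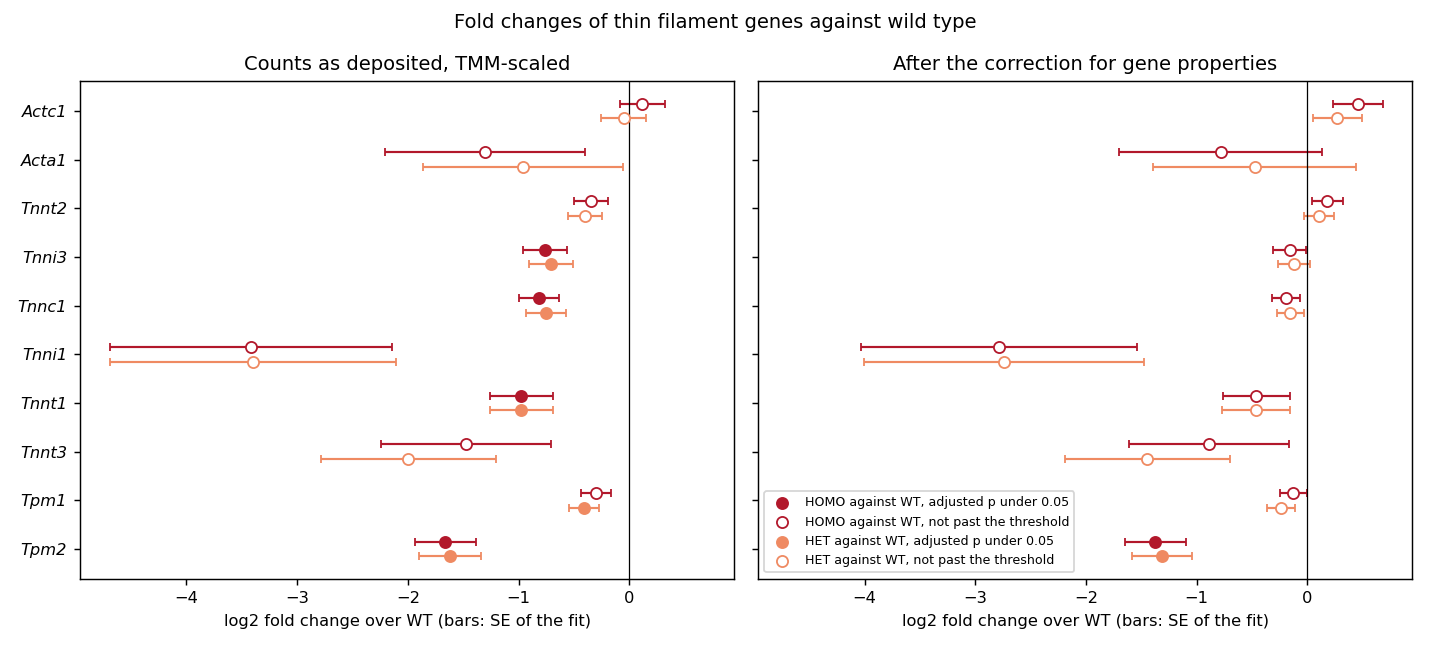
Log2 fold change (horizontal axis) of the 10 genes in HOMO and HET over WT, with SE bars, before (left) and after (right) the trend over gene properties was taken out. Filled points passed an adjusted p of 0.05: Tnni3, Tnnc1, Tnnt1 and Tpm2 in both genotypes and Tpm1 in HET on the left, and Tpm2 on the right.

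**Figure D4:**
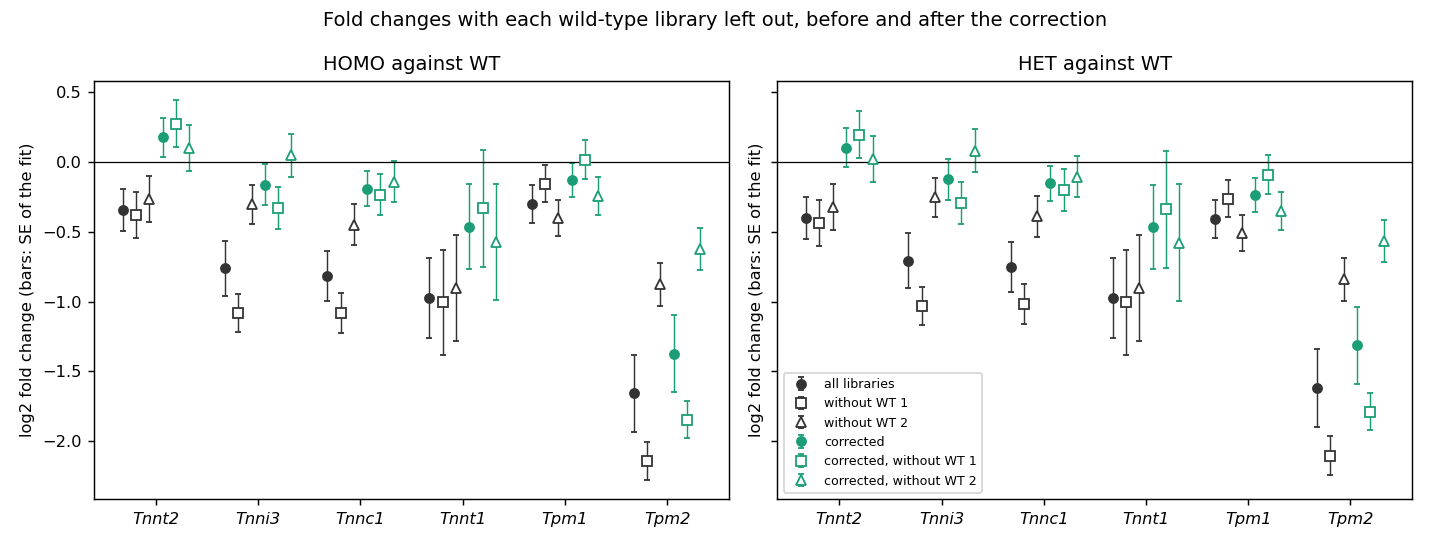
Log2 fold change over WT (vertical axis, SE bars) of 6 genes with all libraries, without WT heart 1 and without WT heart 2, as deposited (dark) and after the trend over gene properties was taken out (green). For Tpm2 every point lies below 0, between -0.57 and -2.14, whereas Tnni3 and Tnnc1 approach 0 once the trend is removed.

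HOMO against HET, the step from a single to both deleted alleles, passed the threshold in none of the 10 genes and in 0.0% of all genes tested (0 of 15075 with edgeR, 411 at an unadjusted p under 0.05, and 3 with DESeq2). The differences ran from -0.35 ± 0.82 for Acta1 to 0.52 ± 0.73 for Tnnt3, and among the 5 abundant genes from -0.06 ± 0.16 for Tnnc1 to 0.17 ± 0.18 for Actc1. All 3 HOMO hearts were above all 3 HET hearts for Actc1 and Tpm1, against 6.19% of all genes, and for none of the 10 were they all below, against 5.15%. Per kilobase, Actc1 over Tpm1 was 1.39 ± 0.10 in HOMO, 1.34 ± 0.08 in HET and 1.02 ± 0.26 in WT (SD, n = 3, 3 and 2).

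Of 8 other actin, troponin and tropomyosin genes, 3 were lower in HOMO and 4 in HET, and none was higher. Actb, the cytoplasmic beta-actin gene, had 260, 259 and 195 CPM in HOMO, 271, 258 and 214 CPM in HET and 453 and 703 CPM in WT (HOMO -1.28 ± 0.20, adjusted p = 0.00183). Actg1, cytoplasmic gamma-actin, was at -1.12 ± 0.19 in HOMO (adjusted p = 0.00233), and Tpm3, a tropomyosin of slow skeletal muscle and non-muscle cells, at -0.68 ± 0.12 (adjusted p = 0.00277). HET gave -1.22, -1.07 and -0.61 for Actb, Actg1 and Tpm3, and Acta2, the smooth muscle alpha-actin gene, was the fourth (-1.43, adjusted p = 0.0299).

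Of 20 genes of thin filament length and assembly, 6 were higher and 2 lower in HOMO, and 9 were higher and 1 lower in HET. Over all genes tested, 15.3% were higher and 12.4% lower in HOMO, and 15.2% and 12.8% in HET. Nebl, nebulette, a nebulin relative of the cardiac Z-disc, had 213, 256 and 260 CPM in HOMO, 243, 283 and 239 CPM in HET and 33.0 and 19.1 CPM in WT (HOMO 3.22 ± 0.24, adjusted p = 4.97e-05). Capza2, a capping protein of the barbed end, was higher by 0.89 ± 0.14 (adjusted p = 0.00174), Fhod3, a formin needed for sarcomere assembly in cardiomyocytes, by 1.04 ± 0.18 (adjusted p = 0.00261), and Cap2, a cyclase-associated actin regulator, by 0.67 ± 0.12 (adjusted p = 0.00354). The 2 that were lower in HOMO were Lmod1, a leiomodin of smooth muscle, and Cfl1, the non-muscle cofilin.

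Of 12 kinases and phosphatases that act on thin filament proteins, 5 were higher in HOMO and 6 in HET and none was lower. Over all genes tested, 15.3% were higher and 12.4% lower in HOMO, and 15.2% were higher and 12.8% lower in HET. Ppp1cb, a catalytic subunit of protein phosphatase 1, was higher by 0.91 ± 0.14 in HOMO (adjusted p = 0.00142). Camk2d, the cardiac calmodulin-dependent kinase, differed by 0.83 ± 0.17, Prkacb, a catalytic subunit of protein kinase A, by 0.72 ± 0.15, and Prkar1a, a regulatory subunit of it, by 0.61 ± 0.14, with adjusted p of 0.00566, 0.00695 and 0.0107. With the trend over gene properties taken out, none of these 4 passed: Ppp1cb was at 0.24 (adjusted p = 0.177), Camk2d at 0.33 (adjusted p = 0.130), Prkacb at 0.37 (adjusted p = 0.0812) and Prkar1a at 0.35 (adjusted p = 0.0907). Of 14 listed regulators of muscle gene transcription, 4 were higher and 1 lower in HOMO, and 4 were higher and none lower in HET. Tead1, which binds the MCAT element, was at 1.33 ± 0.18 (adjusted p = 0.000927), Myocd, the partner of serum response factor, at 1.33 ± 0.19 (adjusted p = 0.00102), Mef2c at 0.59 ± 0.13 (adjusted p = 0.00912) and Hand2 at -0.94 ± 0.18 (adjusted p = 0.00478). With the trend taken out Hand2 was at -0.56 and no longer passed (adjusted p = 0.0568). Srf itself had 167, 193 and 196 CPM in HOMO, 140, 182 and 192 CPM in HET and 142 and 146 CPM in WT, which did not pass (adjusted p = 0.102 in HOMO and 0.257 in HET). Of the genes named from these 4 lists, the 15 with a HOMO fold change above each passed in the same direction without WT heart 1 and without WT heart 2, with adjusted p of at most 0.0406. In proportion, the sizes that depended most on the WT heart left out were those of Hand2 (-1.20 without WT heart 1 and -0.59 without WT heart 2), Camk2d (1.18 and 0.59) and Prkacb (0.997 and 0.53).

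Markers of other muscle types were counted because some of the 10 genes are also expressed there. Of 9 smooth muscle markers, none was higher, and 4 were lower in HOMO (44.4%, against 12.4% of all genes). In HET, 6 were lower (66.7%, against 12.8%). The sum of the 9 markers ran from 2352 to 2484 CPM in HOMO, from 2124 to 2803 CPM in HET and was 3265 and 4009 CPM in WT. No marker was at 0 in all hearts of a genotype. Most of that sum was Des, the desmin gene, which cardiomyocytes also express and which passed in neither genotype (adjusted p = 0.0731 in HOMO and 0.0686 in HET). The other 8 summed to between 400.4 and 522 CPM in HOMO, between 341 and 472 CPM in HET, and to 835 and 817 CPM in WT. Myh11, smooth muscle myosin, had 37.0, 29.7 and 27.8 CPM in HOMO, 32.4, 34.8 and 18.8 CPM in HET and 70.3 and 162 CPM in WT. WT heart 2 exceeded WT heart 1 in 7 of the 9 markers, as it did for Tpm2, while Acta2 (337 CPM in WT heart 1 and 223 in WT heart 2) and Smtn (316 and 204 CPM) ran the other way. Of 8 tested atrial markers, 5 (62.5%) were lower in each genotype, against 12.4% and 12.8% of all genes, and none was higher. Their sum ran from 132 to 395 CPM in HOMO, from 127 to 452 CPM in HET and was 364 and 630 CPM in WT, so it overlapped, through Nppa, which did not pass (adjusted p = 0.411 in HOMO and 0.623 in HET). Without Nppa the sum ran from 29.4 to 37.5 CPM in HOMO, from 31.8 to 37.0 CPM in HET and was 81.2 and 116 CPM in WT. Myl7, the atrial light chain, had 0.366, 0.279 and 0.177 CPM in HOMO, 0.272, 0.532 and 0.684 CPM in HET and 6.59 and 14.2 CPM in WT. The part of smooth muscle and atrial RNA in the Tpm2 difference was not tested, and in RNA of hearts fewer cells of a type and less RNA per cell cannot be told apart.

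Of 18 skeletal muscle markers, 8 passed the filter, of which 2 were lower in HOMO (Mylpf and Mybpc2) and 1 in HET (Mybpc2). Those are 25.0% and 12.5% of the tested markers, beside 12.4% and 12.8% of all genes called lower. The sum ran from 43.4 to 57.9 CPM in HOMO, from 41.5 to 45.2 CPM in HET and was 77.9 and 96.6 CPM in WT. Of the 18 markers, 3 (Myh4, Myf6 and Pax7) were at 0 in all 8 libraries. The number with counts was 8, 13 and 10 in HOMO, 9, 9 and 10 in HET and 12 and 13 in WT hearts. Mybpc2, a fast myosin-binding protein, had 30.5, 28.2 and 39.8 CPM in HOMO, 32.9, 24.4 and 25.6 CPM in HET and 61.3 and 65.3 CPM in WT, where, as for Tnnt1, no deletion heart reached either WT heart. The sum without Mybpc2 ran from 12.9 to 20.5 CPM in HOMO, from 12.3 to 18.9 CPM in HET and was 16.6 and 31.4 CPM in WT, and overlapped. The part of skeletal muscle RNA in the Tnnt1 difference was not tested. Adipocyte markers summed to at most 0.916 CPM in HOMO and 0.363 CPM in HET, and to 1.70 and 17.6 CPM in WT, so WT heart 2 was the highest there as it was for Tnni1 and Tnnt3. In that list 1 of 2 tested genes was lower in each genotype, in the endothelial list 1 of 6, and in the fibroblast list of 7 none passed with edgeR.

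**Figure D5:**
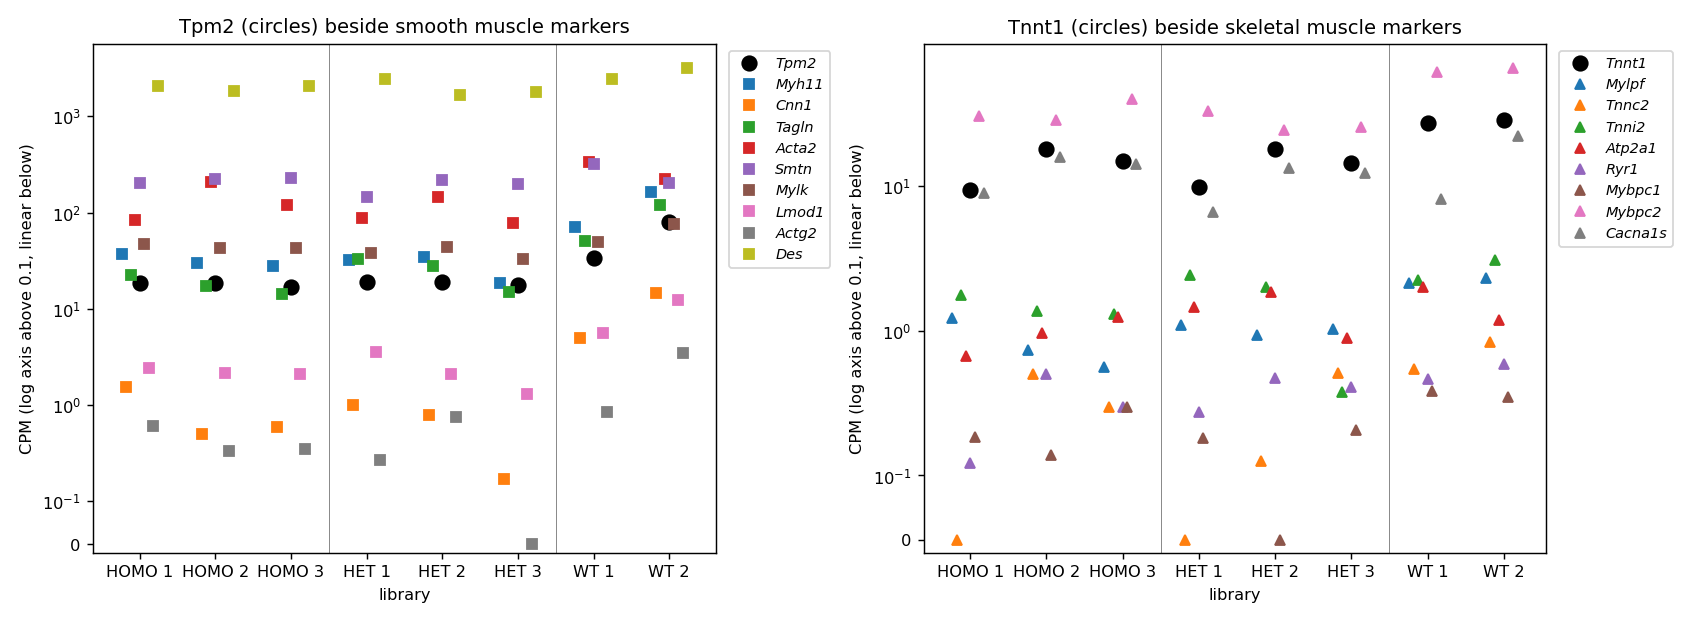
CPM (log axis above 0.1, linear below) in each library of Tpm2 with the 9 smooth muscle markers (left) and of Tnnt1 with the 8 tested skeletal muscle markers (right). On the left WT heart 2 was the highest of the 8 hearts for Tpm2 (80.0 CPM) and Myh11 (162 CPM) but not for Acta2 or Smtn, and on the right Mybpc2 and Tnnt1 were both highest in the WT hearts, whereas Cacna1s overlapped.

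Across the 8 libraries Tnni3 and Tnnc1 had r = 0.99 on log2 CPM, Tnnc1 and Tpm2 0.97 and Tnni3 and Tpm2 0.97, while Actc1 had a negative r with 8 of the other 9 genes, down to -0.78 with Tnnt3. The gene outside the 10 most alike to Tnni3 was Myl2, the ventricular regulatory light chain (r = 0.996), which had 6574, 6696 and 7395 CPM in HOMO, 7904, 8271 and 6702 CPM in HET and 9128 and 19551 CPM in WT. Those most alike were Tm2d3 for Tnnc1 (0.995), Slc35c2 for Tpm2 (0.998), Lmf1 for Tnnt2 (0.991), Metrnl for Tpm1 (0.976), Pdlim7 for Tnnt1 (0.976), Dhrs7c for Acta1 (0.969), Rps29 for Tnnt3 (0.974) and Mir3064 for Actc1 (0.984). These r describe 8 libraries in 3 genotypes and share the step between WT and deletion hearts and the gap between the WT hearts. They were picked as the highest of 13101 genes compared.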

How the data were processed

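Gene-level read counts of 8 libraries were used as deposited by the authors, 1 row per gene symbol, unnormalised per the labels. The submitters' processing notes name Trimmomatic 0.36, HISAT2, Subread, featureCounts, DESeq2 and the mm10 build; the sources used here name no annotation, strand setting or rule for multimapping reads. The labels' protocols give TRIzol extraction, a TruSeq kit and Illumina sequencing.

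Counts were fitted in edgeR 4.0.16 (robust quasi-likelihood F test, two-sided, TMM scaling, filterByExpr by genotype, all 8 libraries in 1 fit), with Benjamini-Hochberg adjustment over 15075 genes and a threshold of 0.05. Alternatives used DESeq2 1.42.0, limma 3.58.1 (voom), other scalings and filters, each library left out, a replicate block, and an offset from splines (4 df) of GC content and of transcript and 3′ UTR lengths (13909 genes with values). The scripts were tested on simulated counts. Isoform shares were compared by exact permutation over hearts (scipy 1.17.1). Lengths and sequences came from GENCODE vM21 (GRCm38) and RefSeq promoters (9 of 10 genes matched).

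Totals of 22230090 to 55902737 counts per library set the precision; intervals and floors cover counting error only. The hearts came from littermates, and the p-values set each group difference against the spread between these hearts. Replicate numbers were not taken as pairs, and the labels do not settle whether they are. The 10 genes and all lists were chosen with earlier results of these data known. Named besides the 10 are up to 4 genes per pathway list that passed in HOMO, by smallest p among genes averaging 1 CPM or more, and the most alike gene for each of the 10 that average as much. Mrtfa and Mrtfb are listed under their older symbols Mkl1 and Mkl2.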

Additional observations from a re-analysis of the deposited data

How the results depend on the processing

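Of the 10 genes, Tpm2 in HOMO was called lower than WT in all 22 alternative fits (-0.62 to -2.14), and Tpm2 in HET in 21 of 22 (-0.57 to -2.10). Leaving out each library in turn gave 1 to 6 called genes of the 10 in HOMO and 1 to 6 in HET. Over all genes it gave 2135 to 5717 calls in HOMO, 2359 to 5634 in HET and 0 to 1 for HOMO against HET, and the lower counts against WT came without WT heart 2. With the gene property correction, 1 of the 10 and 1981 genes in all were called in HOMO and 1 and 1834 in HET. With the correction and without WT heart 2, the counts were 1 and 739 in HOMO and 0 and 726 in HET, and with it and without WT heart 1 they were 4 and 3723 in HOMO and 3 and 3537 in HET, with Actc1 called higher in each. With only the compared genotypes in the fit HET had 3 of the 10 and 2668 in all. HOMO then had 4 of the 10 and 3354 in all, with Acta1 called and Tnni3 not. The DESeq2 test called 6 of the 10 in HOMO, Tnni1 and Tpm1 besides those of the main fit. In HET it called 8 of the 10, Tnnt2, Tnni1 and Tnnt3 besides those of the main fit. HOMO against HET had 2 calls in all without a filter on low counts, 3 with DESeq2, and 1 with the correction and without either WT heart.

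Same-numbered libraries of different genotypes correlated between -0.02 and 0.18 in their deviations, and different-numbered ones between -0.23 and 0.13. The deviations of the 2 WT hearts mirror each other, so pairs with WT tell little. The numbers were not taken as pairs, but these values do not settle whether they are. With the replicate block, 4 of the 10 genes were called in HOMO and 3 in HET. With the block and the correction, the counts were 1 of the 10 and 1495 in all in HOMO, and 1 and 1312 in HET.

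Signs turned as follows, all values on the log2 scale, and the cause was not tested. Under the correction alone, with the block, without WT heart 1 and without WT heart 2, Tnnt2 was 0.18, 0.17, 0.28 and 0.10 in HOMO and 0.10, 0.10, 0.20 and 0.0229 in HET. Under the correction without WT heart 2, Tnni3 was 0.0481 in HOMO and 0.083 in HET, Tnnt3 was 1.42 and 0.86, and Camk2d and Hand2 in HET were -0.0232 and 0.33. Hand2 in HET was 0.0187 under the correction and 0.10 with the block as well. Tpm1 in HOMO was 0.0185 under the correction without WT heart 1. Actc1 in HET was 0.0007 with limma-voom, 0.27 under the correction, 0.32 with the block as well and 0.81 without WT heart 1 as well. In HOMO against HET, Acta1 was 0.32 with limma-voom, 0.25 with the block and 0.27 with block and correction. Tnni1 was 0.0001 without a filter, 0.0681 with DESeq2, 0.0535 with limma-voom, 0.83 with the block and 0.74 with block and correction, and Tnnt1 was -0.0001 with DESeq2 size factors or the DESeq2 test, -0.0144 with total counts, -0.0035 with the stricter filter, -0.0011 with only these genotypes and -0.0046 with the block.

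With each library left out, Actc1 ranged from -0.19 to 0.57 in HOMO and from -0.36 to 0.40 in HET, and Tnnt3 from -2.33 to 1.12 and from -2.86 to 0.60. HOMO against HET ranged from -0.82 to 1.25 for Acta1, -0.14 to 0.0056 for Tnnc1, -0.54 to 1.51 for Tnni1, -0.23 to 0.22 for Tnnt1, -0.0134 to 0.16 for Tnnt2 and -0.0704 to 0.0066 for Tpm2. In percentage points of share it ranged from -3.42 to 2.07 for Acta1, -0.00151 to 0.00328 for Tnni1 and -0.0540 to 0.0348 for skeletal troponin T. Tnni1 and Tnnt3, at 0 to 129 counts per library, are limited by depth, and no value could be had for them under the filter of 1 CPM in 3 libraries.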
